A study of Homo sapiens with 12 samples.

Results

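The HLA antigen presentation genes described here are 9 genes chosen by name: the class I genes HLA-B, HLA-C, HLA-E, HLA-F and B2M, and the class II genes HLA-DRA, HLA-DPA1, HLA-DMA and CD74. All probes annotated to these symbols were taken, 15 of the 47321 probes analysed, of which 8 belong to class I and 7 to class II. They were measured on 12 Illumina HT-12 bead arrays of 3 lines labelled as multiple myeloma, each with 2 arrays of DMSO control cells and 2 arrays of cells treated with PRIMA-1Met, a thiol-reactive small molecule studied as a reactivator of mutant p53. MM.1S, labelled p53 wild type, received 20 µM. U266, labelled p53 mutant, and 8226R5, labelled p53 null, received 40 µM, and the treatment lasted 8 h in all lines. MM.1S therefore differs from the other lines in dose as well as in p53 status, and each p53 status is represented by 1 line. Cells were seeded in duplicate, but whether paired arrays are independent cultures is not stated, so the p-values reflect only array-to-array spread, which may be technical. As RNA was taken from whole cultures, fewer cells of a type and less RNA per cell cannot be told apart.

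Class I molecules consist of a heavy chain, such as those encoded by HLA-B, HLA-C, HLA-E and HLA-F, bound to the light chain beta-2-microglobulin (B2M), and they present peptides from the cytosol to CD8 T cells and to receptors of natural killer cells. Class II molecules are pairs of an alpha and a beta chain that present peptides from endosomes to CD4 T cells; they assemble with the invariant chain CD74, and the HLA-DM dimer later exchanges the invariant chain fragment for peptide. Class I, B2M and class II promoters share a module of short elements bound by the RFX complex, CREB or ATF proteins and NF-Y, on which the coactivators NLRC5 (class I) and CIITA (class II) act. Plasma cells normally silence CIITA and keep class I, and myeloma lines differ in how much class II they retain.

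The upstream sequences of 4 members are shown because ATTGG, the NF-Y binding sequence called the Y box core here, can be read in them. The other elements of the shared module and their spacing were not searched, so a match need not be the Y box of that module. Each is the 150 bases before the RefSeq start site in GRCh38.p14, 5′ to 3′ on the strand of the gene, and capitals mark ATTGG on either strand and, in B2M, an interferon-stimulated response element pattern spelled GAAA, any 2 bases, GAAA. The stretches lie at chr6:31357180-31357329 (minus strand), chr15:44711367-44711516 (plus strand), chr6:32953098-32953247 (minus strand) and chr5:150412911-150413060 (minus strand).
HLA-B: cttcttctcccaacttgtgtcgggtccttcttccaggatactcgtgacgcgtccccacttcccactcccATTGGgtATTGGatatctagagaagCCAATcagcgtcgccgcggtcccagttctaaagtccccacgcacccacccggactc
B2M: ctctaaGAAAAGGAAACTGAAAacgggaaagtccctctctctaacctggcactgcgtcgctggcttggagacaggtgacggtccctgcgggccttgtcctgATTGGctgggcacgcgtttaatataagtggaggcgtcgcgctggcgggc
HLA-DMA: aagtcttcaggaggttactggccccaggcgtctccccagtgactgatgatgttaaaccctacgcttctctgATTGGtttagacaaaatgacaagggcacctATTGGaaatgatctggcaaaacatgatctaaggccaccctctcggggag
CD74: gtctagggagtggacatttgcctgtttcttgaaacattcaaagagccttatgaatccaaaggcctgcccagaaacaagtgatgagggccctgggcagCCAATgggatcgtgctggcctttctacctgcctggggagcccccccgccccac
Over the 250 bases before the start site, the Y box core occurred in 6 of the 7 members with a promoter in the table (HLA-B, HLA-C, HLA-F, B2M, HLA-DMA and CD74), against 32.0% of 35116 RefSeq promoters. It was not found at either start site listed for HLA-DPA1. Relative to the start it stood at -81 and -74 on the gene's strand and at -56 on the other in HLA-B, at -49 in B2M, at -79 and -49 in HLA-DMA, and at -53 on the other strand in CD74. The interferon-stimulated pattern, searched on both strands too, occurred in B2M, as a pair of overlapping matches, and in HLA-F, against 3.02% of all promoters. Promoters of both classes thus held the Y box core. The 2 members with the interferon-stimulated pattern were class I genes. HLA-E and HLA-DRA had no promoter listed and only this spelling was searched, so the classes are not compared on it. Such a match is a run of letters and not a binding site.

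The genes lie, by RefSeq on GRCh38.p14, on chromosome 6 within the major histocompatibility complex, apart from B2M (chr15:44711517-44718145) and CD74 (chr5:150401639-150412910). HLA-B occupies chr6:31353875-31357179 and HLA-DRA chr6:32439887-32445046. A probe counted as detected on an array at a detection p under 0.01, and 19357 probes detected on at least 2 of the 12 arrays were tested. Of the 15 member probes 14 passed, 7 of class I and 7 of class II; the probe left out, ILMN_2150787 of HLA-C, was detected on no array. Of the 15, 13 were detected on all 12 arrays, and CD74 ILMN_1761464 was not above background on either treated MM.1S array. HLA genes are polymorphic and similar to each other, so a probe may match the alleles of the lines unequally or bind RNA of a close relative; neither was tested.

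Between 11815 and 16025 probes were detected per array, with the 2 treated MM.1S arrays lowest. The mean 90th percentile of bead intensity was 213.7 in treated and 812.4 in control MM.1S, 535.3 and 905.3 in U266, and 867.2 and 700.9 in 8226R5. Most of these cell type markers, though not all, went against the label on the arrays labelled 8226R5. Of 9 plasma cell markers, 9 were detected on both control arrays of MM.1S, 8 in U266 and 4 in the line labelled 8226R5, where TNFRSF17, IRF4, POU2AF1, CD38 and SLAMF7 were not above background. SDC1, XBP1, PRDM1 and MZB1 were detected there. MZB1 had a mean log2 signal of 9.22 in those controls, 7.65 in U266 and 13.34 in MM.1S. Summed plasma cell marker intensity ranged from 3908 to 4073 on the 8226R5 control arrays and from 50080 to 93950 on those of MM.1S and U266. Of 5 T and NK cell markers, CD3D, CD3E, NKG7 and GNLY were detected on both 8226R5 control arrays, CD3D at a mean log2 signal of 12.1 and at least 49.2-fold above MM.1S, where 0 of the 5 were detected on both arrays. CD2 was detected on neither 8226R5 control array and on both of U266. Their summed intensity was 9700 to 9961 in 8226R5 controls and 85.36 to 128.1 in the other controls. Results for the line labelled 8226R5, written 8226R5 hereafter, carry this limit, also where they stand beside those of the other lines. Its 4 arrays also enter the pooled spread behind the p-values of MM.1S and U266. Without them 8 member probes were called in treated against control MM.1S, in place of 9, where 69.3% of all tested probes were called. In U266 5 were called, as with them, where 19.9% of all tested probes were.

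In untreated cells 13 of the 14 member probes were lower in MM.1S than in U266, as were 27.9% of all tested probes. HLA-B, a classical class I heavy chain, gave log2 signals of 10.98 and 10.99 in MM.1S, 12.99 and 13.07 in U266 and 11.91 and 11.87 in 8226R5. MM.1S was thus lowest, U266 highest, and no arrays of different lines overlapped. HLA-B was 4.13-fold lower in MM.1S than in U266 (log2 difference -2.05, SE 0.096, n = 2 arrays per group, adjusted p = 1.1e-07). HLA-C, the other classical heavy chain, gave 7.77 and 7.65 in MM.1S, 9.34 and 9.31 in U266 and 7.57 and 7.55 in 8226R5. It was high in U266 alone, 3.07-fold above MM.1S (adjusted p = 3.01e-05). HLA-E, whose product presents leader peptides of other class I chains to natural killer cell receptors, gave 11.78 and 11.88 in MM.1S, 11.80 and 11.69 in U266 and 10.60 and 10.65 in 8226R5. Its MM.1S and U266 arrays overlapped, and both lines were above 8226R5 (2.29-fold for MM.1S, adjusted p = 2.64e-06).

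Among class II genes HLA-DPA1, the alpha chain of HLA-DP, gave 10.90 and 10.79 in MM.1S, 12.01 and 12.04 in U266 and 13.06 and 13 in 8226R5. Each line was apart from the next, with MM.1S 2.26-fold below U266 (adjusted p = 2.16e-05) and U266 2.02-fold below 8226R5 (adjusted p = 4.5e-05). HLA-DRA, the nearly invariant alpha chain of HLA-DR, was read by ILMN_2157441 at 13.50 and 13.46 in MM.1S, 14.40 and 14.39 in U266 and 14.44 and 14.36 in 8226R5. MM.1S was below the others, and U266 and 8226R5 overlapped on that probe. On the other probe, ILMN_1689655, they did not overlap, and U266 was below 8226R5 (log2 difference -0.36, adjusted p = 0.00498 by limma). HLA-DMA, the alpha chain of the peptide exchange factor HLA-DM, gave 11.25 and 11.07 in MM.1S, 12.12 and 12.23 in U266 and 11.07 and 11.05 in 8226R5. It was highest in U266, 2.03-fold above MM.1S (adjusted p = 1.64e-05).

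Over all members, 13 of 14 probes were lower in MM.1S than in U266 at an adjusted p under 0.05, where 27.9% of all tested probes were lower, 29.2% higher and 57.1% called in all; HLA-E was the exception (log2 difference 0.09, adjusted p = 0.454). The median difference was -0.74 for class I and -0.92 for class II, against 0.04 for all tested probes. Against 8226R5, MM.1S was lower for 8 probes (29.6% of all probes) and higher for 2 (30.9%, with 60.5% called in all), which were HLA-E and B2M ILMN_1725427. In that comparison class I was higher for 2 and lower for 3 probes (median 0.15) and class II higher for 0 by limma and lower for 5 (median -0.92). Between U266 and 8226R5, class I was higher in U266 for 5 probes and lower for 1, and class II higher for 2 and lower for 3, where 32.1% and 31.4% of all probes were higher and lower and 63.5% were called. The median U266 minus 8226R5 difference was 1.04 for class I and -0.21 for class II, against -0.00 for all probes. The CD74 probes did not go alike there. ILMN_1761464 was higher in U266 (log2 difference 1.65, adjusted p = 1.07e-05 by limma) and ILMN_2379644 lower (-0.39, adjusted p = 0.0019). ILMN_1736567 was not called (-0.21).

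**Figure D1:**
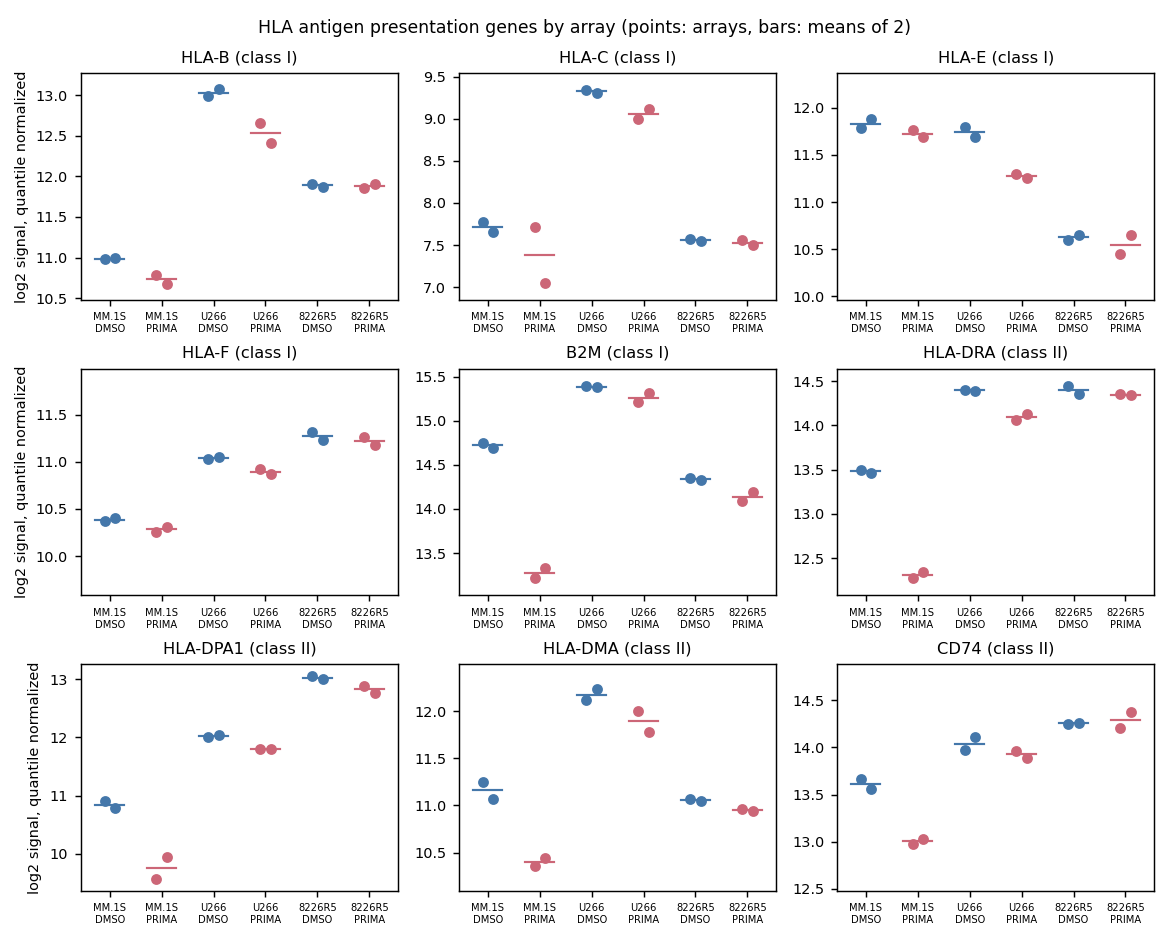
Log2 quantile-normalized signal (y axis) of the brightest tested probe of each of the 9 genes on each array, by line and treatment (x axis); points are arrays and bars the means of 2. The y axes span different ranges. HLA-DRA, HLA-DPA1, HLA-DMA and B2M sit lower on both treated MM.1S arrays than on the MM.1S controls, and the 4 arrays of 8226R5 stay close together for most genes.

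PRIMA-1Met was followed in MM.1S by lower values of class II genes and of B2M, while the class I heavy chains changed little. B2M ILMN_1725427 gave log2 signals of 14.75 and 14.69 in control and 13.22 and 13.33 in treated MM.1S. The groups were far apart, a 2.72-fold fall (log2 change -1.45, SE 0.081, n = 2 arrays per group, adjusted p = 3.32e-07). The other B2M probe fell 2.17-fold, from 14.11 and 14.10 to 12.95 and 13.02 (adjusted p = 4.75e-06). Without quantile normalization these log2 changes shrank, to -0.74 or -0.34 and to -0.62 or -0.22 by the probes each array was centred on, and the call of the second probe was lost at -0.22. Of the probes of the heavy chains that B2M pairs with, 1 of 5 was called, where 71.9% of all tested probes were called and 46.0% fell.

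That probe was HLA-B, at 10.98 and 10.99 in controls and 10.78 and 10.68 after treatment. The arrays did not overlap, but the fall was 1.19-fold (log2 change -0.25, SE 0.096, adjusted p = 0.0386), and the call was lost under 10 of 15 alternatives, among them without the 4 arrays labelled 8226R5, without either MM.1S control array and without the second treated array (log2 change -0.20). HLA-C gave 7.77 and 7.65 in controls and 7.71 and 7.05 after treatment, so its groups overlapped and its treated arrays disagreed. Its log2 change of -0.33 (SE 0.17) had an adjusted p of 0.114. HLA-E changed by -0.10 (adjusted p = 0.342), and the 2 HLA-F probes by -0.10 and 0.21 (adjusted p = 0.272 and 0.197).

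All 4 class II genes fell in MM.1S on at least 1 probe. HLA-DRA ILMN_2157441 gave 13.50 and 13.46 in controls and 12.28 and 12.34 after treatment, a 2.25-fold fall (log2 change -1.17, SE 0.074, adjusted p = 7.2e-07). Its other probe fell 2.11-fold (log2 change -1.08, SE 0.088). HLA-DPA1 gave 10.90 and 10.79 in controls and 9.56 and 9.94 after treatment, a 2.14-fold fall (SE 0.12 on the log2 scale, adjusted p = 2.24e-05). The treated HLA-DPA1 arrays lay farther apart than the controls, but both were well below them. HLA-DMA gave 11.25 and 11.07 in controls and 10.36 and 10.44 after treatment, a 1.69-fold fall (log2 change -0.75, SE 0.099, adjusted p = 8.45e-05).

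The 3 probes of CD74, the class II invariant chain, did not move alike. ILMN_1736567 gave 13.66 and 13.56 in controls and 12.98 and 13.03 after treatment, a 1.52-fold fall (adjusted p = 2.06e-04). ILMN_1761464 gave 7.93 and 8.04 in controls and was not above background on either treated array, so its fall was at least 1.94-fold (adjusted p = 2.57e-05). ILMN_2379644 gave 12.29 and 12.34 in controls and 12.15 and 12.32 after treatment, with overlapping groups (log2 change -0.08, adjusted p = 0.401). Which CD74 transcripts each probe reads was not tested.

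In MM.1S 9 of 14 member probes thus fell and 0 rose by limma, where 46.0% of all tested probes fell and 25.9% rose (71.9% called); the count of rises was also 0 at an unadjusted p under 0.05. By class, 3 of 7 class I and 6 of 7 class II probes fell. The median log2 change was -0.25 for class I (-0.10 for the heavy chains, -1.28 for B2M) and -1.08 for class II, against -0.25 for all tested probes. Falls of at least 2-fold were fitted for 2 class I probes, both B2M, and 4 class II probes, where 17.8% of all probes fell and 12.1% rose as much. With the authors' scaling the heavy chains sat near the middle of all probes and class II and B2M below it. The treated MM.1S arrays were also the dimmest of the 12 and differed most between replicates (SD of the replicate difference 0.38, against 0.17 to 0.23 in the other groups); the part of this in the result was not tested. Of the 9 plasma cell markers 8 fell and 1 rose in MM.1S (median log2 change -1.05), and their summed intensity went from between 91480 and 93950 to between 23560 and 24460, while the 90th percentile of all probes went from 812.4 to 213.7. Of 7 monocyte and dendritic cell markers, 0 were detected on both control and 1 on both treated MM.1S arrays, FCGR3A at 9.59 and 9.45, and the summed intensity went from between 153.8 and 166.3 to between 378 and 380.7. The part of these markers in the result was not tested.

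**Figure D2:**
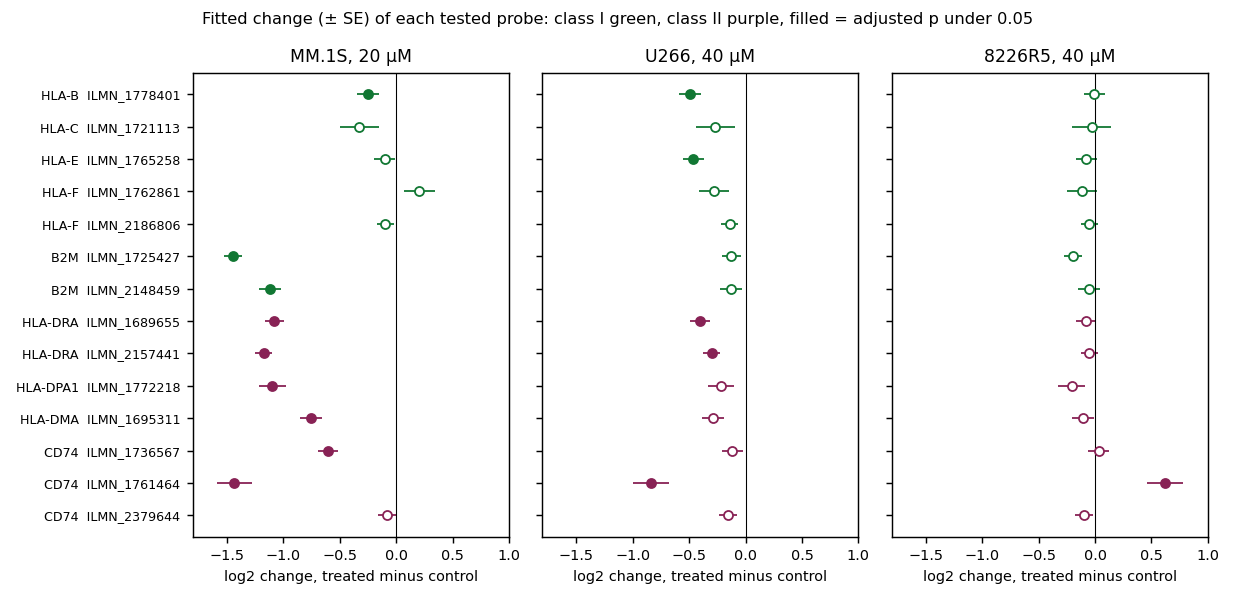
Fitted log2 change, treated minus control (x axis), of the 14 tested probes (y axis) in each line; bars are the standard errors, green marks class I, purple class II, and filled points have an adjusted p under 0.05. In MM.1S the B2M and most class II points lie between -0.61 and -1.45, the 5 heavy chain points lie between -0.33 and 0.21, and the filled point in 8226R5 is CD74 ILMN_1761464 at 0.62.

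The authors' values were quantile normalized, which forces the arrays to 1 distribution although the treated MM.1S arrays were dim. Without the quantile step, and with each array centred on the median of the tested probes or on that of the probes detected on all arrays, the median change of all tested probes in MM.1S moved from -0.25 to 0.23 or 0.63. The share of rises among the called probes moved from 36.1% to 56.5% or 69.4%. Relative to that median, class II stood at -0.83 with the authors' values and at -1.22 without the quantile step, and B2M at -1.03 and -0.91. The heavy chains stood at 0.15 and -0.50, so their side of the median depended on the scaling. Both HLA-DRA probes, HLA-DPA1, HLA-DMA, B2M ILMN_1725427 and CD74 ILMN_1761464 kept a called fall under every scaling. HLA-C, HLA-E, both HLA-F probes and the other 2 CD74 probes changed sign under at least 1 of them. Of the 14 member probes 9 fell and 0 rose with centring on the tested probes, and 6 fell and 4 rose, 2 of each class, with centring on the probes detected on all arrays.

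**Figure D3:**
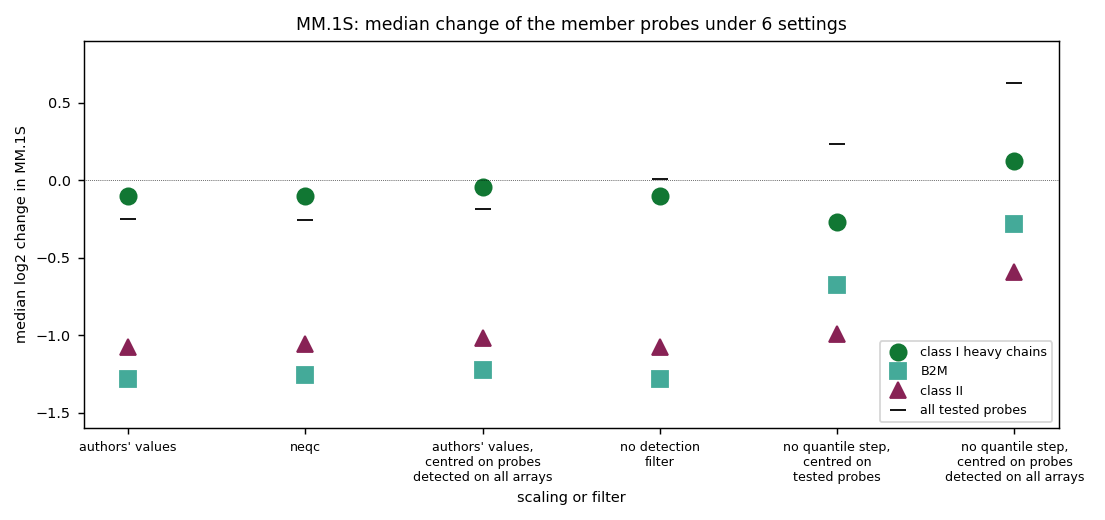
Median log2 change in MM.1S (y axis) of the class I heavy chain probes (n = 5), the B2M probes (n = 2), the class II probes (n = 7) and all tested probes under 6 scalings or filters (x axis); there are no error bars, since each point is a median over probes. Class II and B2M lie below all tested probes at every setting, while the heavy chains lie above them in 3 settings and below in 3.

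A constant shift of an array cancels in the difference between the classes. The median change of class I was 0.83 above that of class II in MM.1S, and 0.61 to 0.98 over all alternatives. In U266 the same difference was 0.02 and in 8226R5 0.03, and neither kept its sign over the alternatives. Against control level the median change in MM.1S was -0.08 for tested probes with a control log2 signal of 6 to 7 and between -0.37 and -0.67 for those above 7. Both B2M probes and 5 of the 7 class II probes lay below the median for their level, while the 5 heavy chain probes and CD74 ILMN_1736567 and ILMN_2379644 lay above it.

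**Figure D4:**
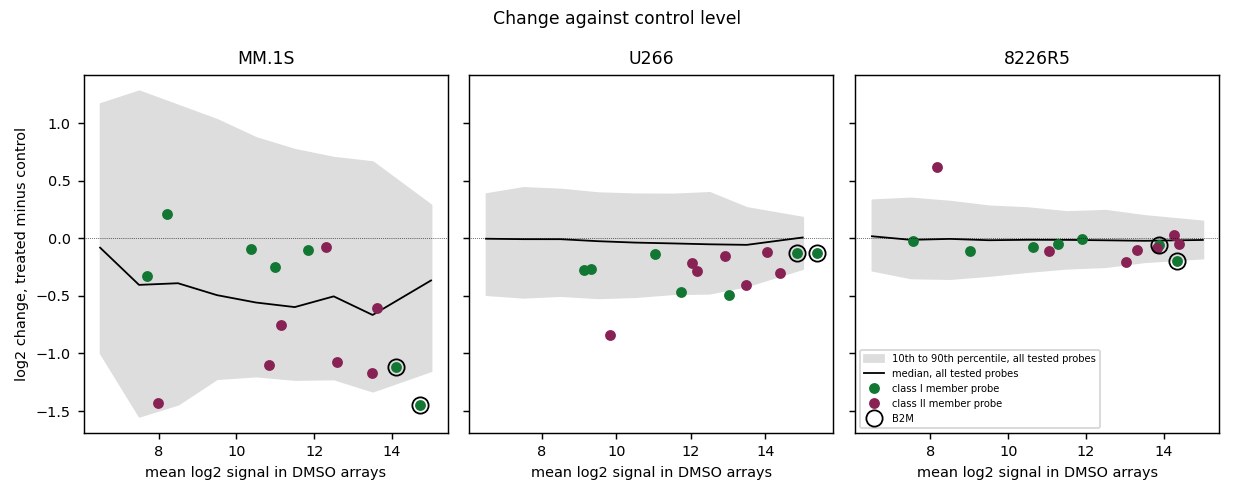
Log2 change (y axis) against the mean log2 control signal (x axis) in each line; the line is the median and the grey band the 10th to 90th percentile of all tested probes in bins of control signal, and points are member probes (green class I, purple class II, ringed B2M). Below the 10th percentile of their own bin lie B2M ILMN_1725427 in MM.1S (-1.45) and CD74 ILMN_1761464 (-0.84), HLA-B (-0.49) and HLA-DRA ILMN_2157441 (-0.30) in U266. So do B2M ILMN_1725427 (-0.20) and HLA-DPA1 (-0.21) in 8226R5, where CD74 ILMN_1761464 (0.62) lies above the 90th percentile of its bin. The band is drawn between bin centres, so such a point can fall inside it as drawn.

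In U266, 5 of 14 member probes fell and 0 rose, where 14% of all tested probes fell and 12% rose (26% called). They belonged to both classes. HLA-B gave 12.99 and 13.07 in controls and 12.66 and 12.41 after treatment, a 1.41-fold fall (log2 change -0.49, SE 0.096, n = 2 arrays per group, adjusted p = 0.00532). HLA-E gave 11.80 and 11.69 in controls and 11.30 and 11.25 after treatment, a 1.38-fold fall (adjusted p = 0.00605). Both heavy chains had separate groups, and neither was among the strong responses of MM.1S. HLA-DRA ILMN_2157441 gave 14.40 and 14.39 in controls and 14.06 and 14.13 after treatment, a 1.23-fold fall (adjusted p = 0.0169), and its other probe fell 1.32-fold (adjusted p = 0.00917). CD74 ILMN_1761464 gave 9.87 and 9.77 in controls and 9.04 and 8.92 after treatment, the largest member response in U266 at 1.79-fold (log2 change -0.84, SE 0.16, adjusted p = 0.00477). The other 2 CD74 probes changed by -0.12 and -0.16 and were not called.

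B2M gave 15.39 and 15.38 in U266 controls and 15.21 and 15.31 after treatment (log2 change -0.13, adjusted p = 0.292). HLA-DPA1 changed by -0.22 (adjusted p = 0.214) and HLA-DMA by -0.29 (adjusted p = 0.0613). All 14 fitted changes lay below 0, with a median of -0.27 for class I and -0.29 for class II, against -0.01 for all tested probes. None reached 2-fold, the size of change that the study's design text names, where 1.39% of all probes fell and 0.997% rose as much. Of the plasma cell markers 5 fell and 0 rose in U266 (median -0.85), and the part of this in the result was not tested. Without the quantile step the median of all probes moved to 0.15 or 0.13, the share of rises among the called from 46.2% to 68.9% or 66.9%, and B2M and CD74 ILMN_1736567 changed sign to between 0.31 and 0.39. Under both of these scalings 3 member probes rose (2 of class I and 1 of class II) and 2 fell in U266. CD74 ILMN_1761464 and HLA-E kept a called fall under both of these scalings, whereas HLA-B (-0.13 and -0.14) and both HLA-DRA probes lost theirs. Without the detection filter 2 member probes were called in place of 5, where 5.13% of all 47321 probes were called. Without U266 control array 1 the median change of the 14 member probes was -0.245, in place of -0.2745.

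In the line labelled 8226R5, 1 of 14 member probes rose and 0 fell, where 5.02% of all tested probes rose and 4.08% fell (9.09% called). CD74 ILMN_1761464 gave 8.06 and 8.28 in controls and 8.82 and 8.75 after treatment, a 1.53-fold rise (log2 change 0.62, SE 0.16, adjusted p = 0.0427). The groups did not overlap, but the call was lost under 7 of 13 alternatives, among them without each of the 4 arrays of the line in turn (log2 change 0.51 to 0.73). The brighter CD74 probes changed by 0.03 and -0.10. HLA-B gave 11.91 and 11.87 in controls and 11.86 and 11.91 after treatment, with overlapping groups (log2 change -0.01, adjusted p = 0.978). The 13 probes not called changed by -0.21 to 0.03, and at an unadjusted p under 0.05 limma gave 1 lower probe, B2M ILMN_1725427 (log2 change -0.20). None reached 2-fold, where 0.279% of all probes fell and 0.253% rose as much. Without the quantile step the share of rises among the called moved from 55.2% to 45.2% or 37.4% for all probes.

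The difference between responses was tested directly as the interaction of line and treatment. Dose also differs between MM.1S and the other lines, so line and dose cannot be told apart there. Against U266, limma called 8 member probes more negative in MM.1S (36.8% of all tested probes) and 1 less so (22.6%, with 59.4% called in all). CD74 ILMN_1761464 is among the 8, but its sign there is not read, as given below. B2M ILMN_1725427 differed by -1.32 (SE 0.11, adjusted p = 1.43e-05), HLA-DPA1 by -0.88 (adjusted p = 0.00154) and HLA-DRA ILMN_2157441 by -0.87 (adjusted p = 9.72e-05). The exception was HLA-E, which fell in U266 and differed by 0.36 (adjusted p = 0.0373). For HLA-B the difference was 0.24 (SE 0.14, adjusted p = 0.15).

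Against 8226R5, 8 probes, those of B2M, HLA-DRA, HLA-DPA1 and HLA-DMA and 2 of CD74, responded more negatively in MM.1S (39.8% of all probes did) and 0 less so by limma, also at an unadjusted p under 0.05 (23.7%, with 63.5% called in all). B2M ILMN_1725427 differed by -1.25 (SE 0.11, adjusted p = 1.42e-05) and HLA-DRA ILMN_2157441 by -1.12 (adjusted p = 1.65e-05). For CD74 ILMN_1761464 the sign alone is read against 8226R5, since its treated MM.1S arrays were not above background. Against U266 no sign is read either. Its MM.1S fall was at least 1.94-fold and its U266 fall 1.79-fold, and the SE of the log2 difference was 0.22. At the matched dose of 40 µM, U266 responded more negatively than 8226R5 for 2 probes (10.8% of all probes did, 8.49% the reverse and 19.3% either), CD74 ILMN_1761464 at -1.46 (SE 0.22, adjusted p = 0.00252) and HLA-B at -0.49 (SE 0.14, adjusted p = 0.0343). The share of members, 2 of 14, lay below the 19.3% of all probes called either way, but not below the 10.8% in the same direction. The brighter CD74 probes differed by -0.15 and -0.05 and were not called.

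Other genes of the pathway were taken from lists of class I machinery, class II machinery and regulators, each gene by its brightest tested probe. Further probes of these genes are not given, and the list results rest on the authors' scaling alone. Of 15 measured class I machinery genes, 9 fell and 3 rose in MM.1S, 5 fell and 1 rose in U266, and 3 fell and 0 rose in 8226R5, where of all tested probes 46.0% fell and 25.9% rose in MM.1S, 14% and 12% in U266, and 4.08% and 5.02% in 8226R5. In MM.1S TAP2, a subunit of the peptide transporter, fell at least 2.78-fold to background, and CANX, a chaperone of new heavy chains, changed by -1.18. ERAP2, which trims peptides in the endoplasmic reticulum, rose by 2.41 on the log2 scale on 1 of its 2 tested probes. In U266 TAP1, the other transporter subunit, changed by -0.93 and PSMB9, an immunoproteasome subunit, by -0.72, while ERAP2 rose by 0.72. In 8226R5 the named falls were smaller, PSMB10 at -0.45, ERAP2 at -0.36 and CANX at -0.35. ERAP2 thus rose in MM.1S and U266 and fell in 8226R5. The list medians were -0.45, -0.20 and -0.07, beside -0.25, -0.01 and 0.00 for all tested probes.

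Of 17 measured class II machinery genes, 8 fell and 4 rose in MM.1S, 2 fell and 1 rose in U266, and 1 fell and 1 rose in 8226R5. The MM.1S counts lay near the share of all tested probes that fell (46.0%) and rose (25.9%). CTSS, the protease that trims the invariant chain, gave 7.63 and 7.72 in MM.1S controls and fell at least 1.56-fold to background, while CTSB, another lysosomal protease, rose by 1.75 and MARCHF8, a ubiquitin ligase that acts on class II, by 1.11. In U266 HLA-DRB4 changed by -0.80, CTSD by -0.40 and CTSB by 0.44. In 8226R5 HLA-DMB, the partner of HLA-DMA, changed by -0.55 and CTSD by 0.46. Of the 17, 12 were above background on both control or both treated MM.1S arrays, of which 7 fell and 3 rose, with a median log2 change of -0.41. In U266 and 8226R5, 14 were above background in that way, with medians of -0.14 and -0.04.

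Of 14 measured regulators, 6 fell and 3 rose in MM.1S, 5 fell and 1 rose in U266, and 3 fell and 0 rose in 8226R5. Again the MM.1S counts lay near the 46.0% and 25.9% of all tested probes that fell and rose. CIITA, the class II coactivator, gave 6.49 and 6.06 in MM.1S controls, both at background, and its MM.1S change of -0.37 was not called (adjusted p = 0.0891). In U266 it was detected on 1 of 2 control and on 0 of 2 treated arrays, so that no size or direction is given although it is among the 5 falls counted. In 8226R5 it fell at least 1.82-fold to background (adjusted p = 0.00728). CIITA is read by a single probe at or near background in most groups. NLRC5, the class I coactivator, was above background on 2 of the 12 arrays, both U266 controls, and was called in no line (log2 changes -0.04, -0.48 and 0.14).

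RFX5, the DNA-binding subunit of the RFX complex, fell in every line on the brighter of its 2 tested probes. It gave 11.72 and 11.74 in MM.1S controls and 10.23 and 10.19 after treatment (log2 change -1.52, SE 0.072, adjusted p = 1.09e-07), and changed by -0.46 in U266 and -0.45 in 8226R5. CREB1 rose by 1.68 on 1 of its 4 tested probes, and NFYB, an NF-Y subunit, by 1.49 in MM.1S. On the treated MM.1S arrays the CREB1 and ERAP2 probes stood at mean log2 signals of 15.47 and 15.36, above B2M ILMN_1725427 at 13.27. Whether these probes bind other RNA was not tested. NFYA, another NF-Y subunit, fell to background in U266 (at least 1.29-fold) and in MM.1S (at least 1.18-fold). NFYC, the remaining subunit, named after its values were seen, changed by -0.94 in MM.1S (adjusted p = 3.15e-04), so the subunits did not move alike there. IRF1, an interferon-induced activator of class I promoters, changed by -1.34 in U266 and -1.34 in 8226R5 and by -0.06 in MM.1S (adjusted p = 0.54). The regulators thus differed between lines in which members moved, and the list medians were -0.28, -0.30 and -0.05.

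**Figure D5:**
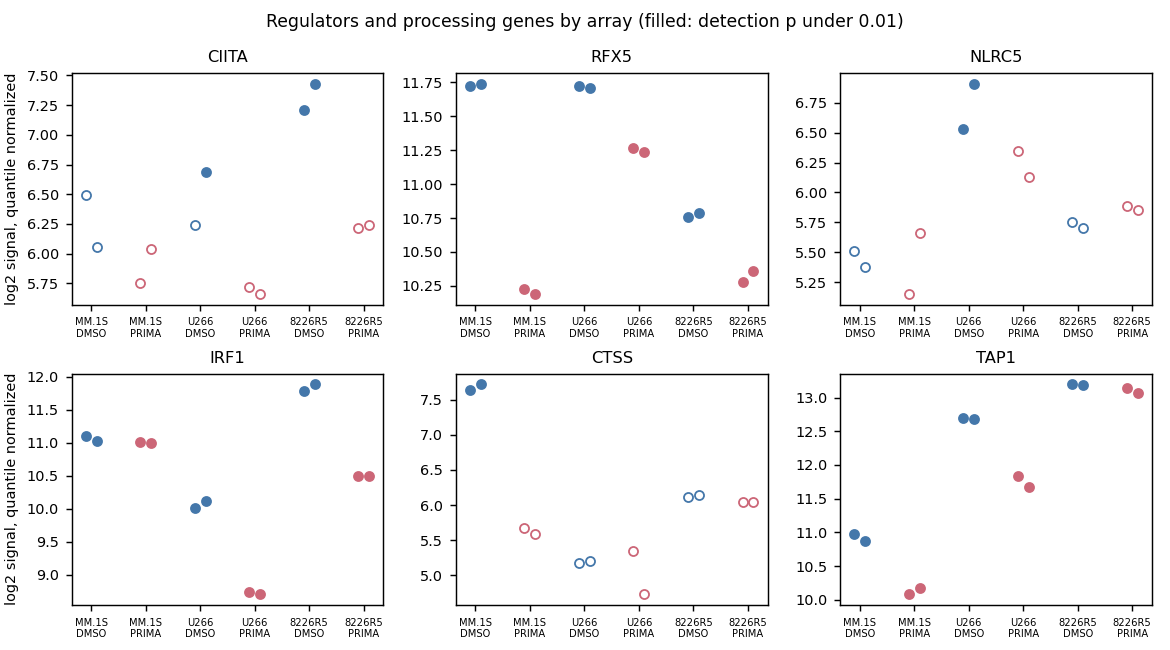
Log2 quantile-normalized signal (y axis) of 6 regulators and processing genes on each array by line and treatment (x axis); filled points had a detection p under 0.01 and open points did not. The y axes span different ranges. RFX5 is lower on both treated arrays of each line, IRF1 is lower on those of U266 and 8226R5, and CIITA is filled on 3 arrays only.

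Over the 12 arrays, which share 3 lines and so are not independent points, the brightest HLA-B probe was most like PNMA1, IFI44L, MX1, IFI6 and NUP42 (Pearson r 0.985 to 0.989). IFI44L, MX1 and IFI6 are interferon-stimulated genes. The brightest HLA-DRA probe was most like EFR3A, PSMA6, TIA1, YWHAQ and TPGS2 (r 0.993 to 0.995). Within the members, the 2 probes of B2M had r = 0.988 and those of HLA-DRA 0.976, whereas CD74 ILMN_1761464 and ILMN_2379644 had 0.577. HLA-E against the class II probes ranged from r = -0.844 (CD74 ILMN_2379644) to 0.172 (HLA-DMA), and against the other class I probes from -0.789 (HLA-F ILMN_2186806) to 0.313 (HLA-C).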

How the data were processed

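The members, the pathway lists and the tests were chosen with earlier results of these data known. Per the file headers and the labels, the deposited value table holds log2 signals, quantile normalized by the authors across 12 arrays, and a second deposited table holds the bead signal of each probe as an intensity with a detection p-value. BeadStudio, lumi and limma were used, per the submitters' processing notes; probe build and tool versions are not given in the sources used here. All columns were matched to samples by title. In the table of intensities, 9 arrays were displaced by 1 position from probe 22924 on (24399 probes). They were realigned, which raised the Spearman correlation with the authors' values from 0.511 to 0.529 up to 1, and the last of 47322 probes was dropped. Of the remaining 47321 probes 30111 had 1 gene symbol, 8 several and 17202 none.

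The deposited log2 values were filtered to 19357 probes that reached a detection p under 0.01 on 2 or more arrays and were fitted with limma 3.58.1 in R 4.3.3 (1 mean per group, 12 arrays, 6 residual degrees of freedom, eBayes, two-sided). The Benjamini-Hochberg adjustment ran over all tested probes, and a probe was called at an adjusted p under 0.05. SE is the standard error of a fitted log2 difference. If neither array of a group exceeded background, folds are bounds against the lowest detected signal of each of its arrays or the probe's own, whichever was higher. The scripts were tested on simulated data. All probes of the 9 members are named, and of each pathway list and line up to 3 called genes with the largest change, with CIITA and NLRC5 in any case. Promoters came from RefSeq (GRCh38.p14), with entries for 7 of the 9 members. Replicate numbers did not pair the arrays. The small number of arrays limits the precision. Alternatives were limma's neqc (offset 16), other scalings and filters, array weights, a replicate block, the arrays of the compared lines alone and leaving out each array; 3 more, 2 scalings without quantile normalization and leaving out the 4 arrays labelled 8226R5, were chosen after seeing the data.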

Additional observations from a re-analysis of the deposited data

Results flagged for a closer look

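Responses that differed between lines by the interaction term are listed here as values. Between MM.1S and U266 the log2 change was more negative in MM.1S for B2M ILMN_1725427 (by -1.32) and ILMN_2148459 (-0.99), HLA-DRA ILMN_2157441 (-0.87) and ILMN_1689655 (-0.67), HLA-DPA1 (-0.88), HLA-DMA (-0.47) and CD74 ILMN_1761464 (-0.60) and ILMN_1736567 (-0.49), and less negative for HLA-E (0.36). Between MM.1S and the line labelled 8226R5 it was more negative in MM.1S for B2M ILMN_1725427 (-1.25) and ILMN_2148459 (-1.06), HLA-DRA ILMN_2157441 (-1.12) and ILMN_1689655 (-1.0), HLA-DPA1 (-0.89), HLA-DMA (-0.65) and CD74 ILMN_1761464 (-2.05) and ILMN_1736567 (-0.64). Between U266 and 8226R5 it was more negative in U266 for CD74 ILMN_1761464 (-1.46) and HLA-B (-0.49). CD74 ILMN_1761464 was called in both comparisons with MM.1S too, with fitted differences of -0.60 from U266 and -2.05 from 8226R5. It was not above background on the treated MM.1S arrays, so neither value is read as a size. From the difference to 8226R5 the sign alone is read, and from that to U266 no sign is read.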

How the results depend on the processing

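Of the 42 fitted changes (14 probes in 3 lines), 18 kept their direction and their side of the threshold under every alternative, 8 lost a call under at least 1 and 17 changed sign under at least 1. The cause was not tested. Fits with 1 array left out leave 1 array in a group, so no count of called members is given for them. The median change of the 14 member probes was then -0.61 to -0.75 in MM.1S, in place of -0.68. In U266 it was -0.214 to -0.273, in place of -0.2745. The U266 count of 5 called members was 2 without the detection filter. There 5.13% of all 47321 probes were called, in place of 26.0% of the tested probes. The 8226R5 count of 1 was 0 with neqc (10.5% of all tested probes called, in place of 9.09%) and without the detection filter (0.687%). It was also 0 with the replicate block (4.36%) and with detection on all 12 arrays (24.0%), which leaves out the called probe. The MM.1S minus U266 count of 9 was 5 without the filter, where 20.5% of all probes were called in place of 59.4%. The U266 minus 8226R5 count of 2 was 1 without the filter (2.80%) and 1 with the replicate block (13.5%), in place of 19.3%. The correlation of same-numbered deviations was 0.023, 0.004 and 0.012 in MM.1S, U266 and 8226R5, so the numbers did not pair the arrays. With the replicate block the 3 response counts were 8, 4 and 0, where 71.4%, 20.2% and 4.36% of all tested probes were called.

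The class I minus class II median was 0.67 in MM.1S with detection on all arrays, 0.62 without quantile normalization at either centring, and 0.61 to 0.98 with 1 array left out. In U266 it was -0.13 without quantile normalization at either centring and -0.11 to 0.11 with 1 array left out, and in 8226R5 -0.05 to 0.06. Without quantile normalization and centred on the probes detected on all arrays, the change in MM.1S turned to 0.13 for HLA-C, 0.30 for HLA-E, 0.02 for HLA-F ILMN_2186806, 0.32 for CD74 ILMN_1736567 and 0.42 for CD74 ILMN_2379644; in U266 to 0.37 and 0.33 for B2M, 0.31 and 0.15 for those CD74 probes and 0.14 for HLA-DRA ILMN_2157441; and in 8226R5 to 0.01 for HLA-B and -0.02 for CD74 ILMN_1736567. Centred on the tested probes, it turned in MM.1S to 0.00 for HLA-F ILMN_1762861 and 0.02 for CD74 ILMN_2379644; in U266 to 0.39 and 0.35 for B2M, 0.33 and 0.17 for CD74, 0.16 for HLA-DRA ILMN_2157441 and 0.00 for HLA-DPA1; and in 8226R5 to 0.04 for HLA-B. With 1 array left out, signs turned for CD74 ILMN_2379644 in MM.1S (-0.16 to 0.01) and, in 8226R5, for HLA-C (-0.06 to 0.00), HLA-E (-0.18 to 0.02), HLA-B (-0.03 to 0.02), B2M ILMN_2148459 (-0.15 to 0.03) and CD74 ILMN_1736567 (-0.06 to 0.12). The scalings without quantile normalization also moved the share of rises among called differences between responses, from 38.0% to 51.8% or 69.6% for MM.1S minus U266, from 37.4% to 57.3% or 71.6% for MM.1S minus 8226R5, and from 43.9% to 69.6% or 71.1% for U266 minus 8226R5. Dim arrays limit what can be said of probes near background in treated MM.1S.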
